A study of Mus musculus with 2 samples.

Results

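Optic nerves of Nf1OPG mice were profiled by single-cell RNA sequencing, and 10 genes of border macrophages (Mrc1, Lyve1, F13a1, Pf4, Cbr2, Cd163, Folr2, Ms4a7, Stab1 and Retnla) were read across the macrophages, microglia, monocytes and dendritic cells. They were chosen by symbol as perivascular and meningeal macrophage genes, 10 of 32285 genes in the files. The libraries, C-ON and FMC_new, carry 1 genotype label and hold optic nerves pooled from 10 mice of 12 weeks of age. Per the study's methods, Nf1OPG mice carry 1 floxed and 1 mutant Nf1 allele with a GFAP-Cre transgene on a C57BL/6 background, so Nf1 is deleted by Cre in cells that have used the GFAP promoter, and the other cells keep the floxed copy. The titles call C-ON a control and FMC_new by its code, no label explains either word, no treatment is given, and the protocol also describes dural meninges. The 2 libraries were therefore read as repeats of 1 condition, without a test between them.

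Border macrophages live along vessels and in the meninges, outside the neural tissue proper, where they take up proteins and debris with scavenger receptors. Microglia are the macrophages of the neural tissue itself, and monocytes and dendritic cells enter from blood. The genes studied here are used to tell border macrophages from microglia, since both share the general macrophage programme.

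All 10 are protein-coding genes in the GENCODE annotation of GRCm38, the build of the files. On the plus strand lie Mrc1 (chr2:14229392-14332057), Pf4 (chr5:90772435-90773383), Cd163 (chr6:124304656-124330527) and Retnla (chr16:48842551-48844461). On the minus strand lie Lyve1 (chr7:110850607-110863239), F13a1 (chr13:36867178-37050244) and Cbr2 (chr11:120729489-120732114), and likewise Folr2 (chr7:101839988-101857194), Ms4a7 (chr19:11321039-11336146) and Stab1 (chr14:31139013-31168641). Besides Folr2, described with its values, F13a1 shares 74 exonic bases with Gm30489 and Stab1 112 with Nt5dc2, both on the opposite strand.

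After the study's filters, 8834 cells of C-ON and 16818 of FMC_new were kept, with medians of 6810.5 and 4676 UMIs (unique molecular identifiers, counted transcripts) per cell. Of the cell barcodes, 296 occurred in both libraries, and 188 were kept in both. Growth hormone (Gh) RNA, which macrophages do not make, stood at 0.715 CPM (the usual depth-scaled unit, here a gene's UMIs over all UMIs of a class) in the macrophage-like cells of C-ON and 7910 CPM in those of FMC_new, and pituitary endocrine-like cells numbered 19 and 587. The part of free RNA in the values of the 10 genes was not tested. T cell-like cells, which should lack the 10 genes, held between 0 and 12.5 CPM of each. Clusters were named from markers that include none of the 10 genes, and the 10 were left out of the genes that built the clusters.

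The reclustered myeloid cells gave 2 macrophage-like classes. A border macrophage-like cluster held 64 cells of C-ON and 96 of FMC_new, and counted 9 of 14 border markers, Dab2, Siglec1, Gas6 and Maf among them. An MHC class II C1q macrophage-like class of 2 clusters held 239 and 738 cells and rested on C1qa, C1qb, C1qc and class II genes. The markers of the 2 classes overlapped in these cells. Each of its clusters counted 10 of 11 markers of its own and 4 of the 14 border markers. The border macrophage-like cluster counted 5 of the 11. Border macrophage-like cells made up 21.1% of the macrophage-like cells in C-ON (95% Clopper-Pearson interval 16.7 to 26.2) and 11.5% in FMC_new (9.42 to 13.9). The comparison classes were microglia-like cells (169 and 1347), monocyte-like cells (11 and 65) and dendritic cell-like cells (274 and 1121). Among the 10 leading genes (largest fold) of the border macrophage-like cluster were 7 of the set: Lyve1, Cbr2, F13a1, Folr2, Cd163, Mrc1 and Pf4. The limits for naming were settled after leading genes were seen, so this is no independent check of the label. As the classes come from the same cells, all comparisons between them are descriptions.

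Across both macrophage-like classes together, 7 of the 10 genes (Mrc1, Lyve1, Pf4, Cbr2, Cd163, Ms4a7 and Stab1) stood at 4 or more times their level in each of the microglia-like, monocyte-like and dendritic cell-like cells, in each library. Cd163 met the limit narrowly, with a ratio of at least 4.35 in C-ON, and missed it under SCTransform and without upper limits on genes and UMIs. Ms4a7 met the limit in C-ON with a ratio of 5.64 that rests on 2 monocyte-like UMIs. The interval of that ratio (1.55 to 46.8) reaches below 4, so the pass of Ms4a7 in C-ON is uncertain. The same rule was met by 10 of 26077 genes with a UMI (0.0383%), and by 10 of 7456 genes with at least 10 CPM in macrophage-like cells (0.134%). The other 3 genes that met it were the chemokine genes Ccl7 and Ccl8 and Cp, which encodes the copper-binding ferroxidase ceruloplasmin. They were named after their values were seen, and Ccl8 is in the list of border markers. F13a1, Folr2 and Retnla did not meet the rule. With the libraries summed, the median ratio of the 10 genes to the next myeloid class was 12.4, and it was 11.5 in FMC_new alone and 6.06 in C-ON alone, with lower bounds entered at their value. In C-ON the 11 monocyte-like cells hold 54921 UMIs, so a gene without a UMI there is given a limit of 54.6 CPM (3 counts), and ratios against such a class are lower bounds. The 2 Ms4a7 UMIs in these cells were entered as 36.4 CPM, which is below that limit.

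**Figure D1:**
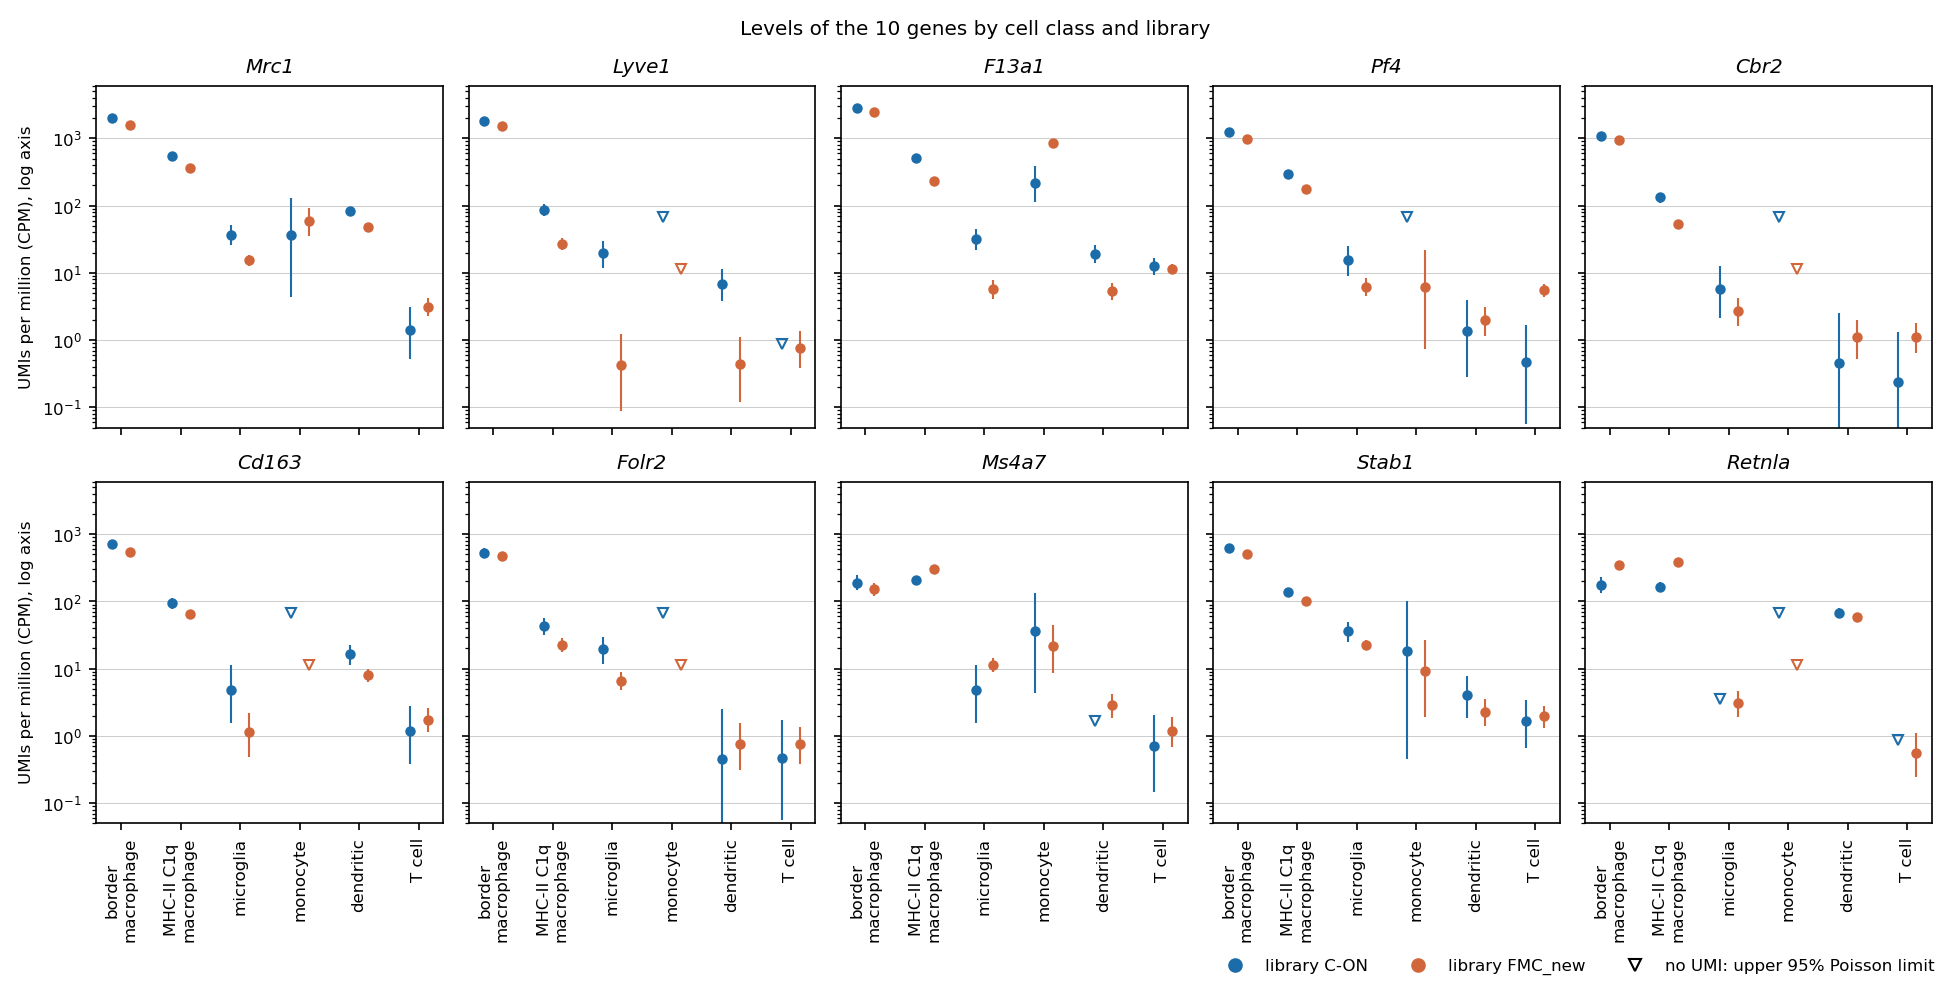
Level of each gene (CPM on a log axis) in 6 cell classes, C-ON in blue and FMC_new in orange; bars are exact 95% Poisson intervals and open triangles are upper limits for classes without a UMI. The border macrophage-like points are the highest of a panel in all genes but Ms4a7 in both libraries and Retnla in FMC_new, and F13a1 alone has monocyte-like points above 200 CPM.

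The endocytic and scavenger receptors are the largest group of the set. Mrc1 encodes the mannose receptor CD206, which takes up glycoproteins. It stood at 1999 CPM in border macrophage-like cells of C-ON and 1597 in FMC_new, against 554 and 358 in MHC class II C1q macrophage-like cells. Dendritic cell-like cells held 83.8 and 47.4 CPM, monocyte-like cells 36.4 and 58.3, and microglia-like cells 37.0 and 15.5. The order of the last 3 classes was not the same in both libraries, and in C-ON the interval of the monocyte-like cells (4.41 to 132 CPM, from 2 UMIs) covered the values of both other classes. Mrc1 was found in 93.8% of border macrophage-like cells in each library (76.6% and 60.4% after thinning each cell to 1000 UMIs) and in 0.296% and 0.803% of T cell-like cells. Macrophage-like cells as a whole held 10.7 times the next class in C-ON and 9.37 times in FMC_new.

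The promoters of 4 genes are shown for the 4 patterns described here: Mrc1 (high in both macrophage-like classes), Cbr2 (highest in the border class), F13a1 (shared with monocyte-like cells) and Retnla (held by few cells). They are 300 bases each from RefSeq on GRCm38.p6, in the direction of the gene, 250 before and 50 after the start. Capitals mark GAGGAA, the core that PU.1 binds, which reads as TTCCTC on the other strand. They also mark TGCTGA, part of the MAF recognition element, which reads as TCAGCA on the other strand. Both were searched on both strands.
Mrc1, chr2:14229164-14229463, plus strand: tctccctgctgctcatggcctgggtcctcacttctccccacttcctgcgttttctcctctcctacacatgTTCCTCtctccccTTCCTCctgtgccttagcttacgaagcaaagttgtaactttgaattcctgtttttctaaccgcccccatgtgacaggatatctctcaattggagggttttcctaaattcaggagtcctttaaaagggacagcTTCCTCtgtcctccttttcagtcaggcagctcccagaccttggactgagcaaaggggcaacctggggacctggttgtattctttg
Cbr2, chr11:120731972-120732271, minus strand: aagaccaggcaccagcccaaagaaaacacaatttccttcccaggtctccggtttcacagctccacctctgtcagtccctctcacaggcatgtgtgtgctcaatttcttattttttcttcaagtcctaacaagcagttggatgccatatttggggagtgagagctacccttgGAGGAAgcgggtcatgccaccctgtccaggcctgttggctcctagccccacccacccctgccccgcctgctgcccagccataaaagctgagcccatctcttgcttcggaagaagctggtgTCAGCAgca
F13a1, chr13:37050195-37050494, minus strand: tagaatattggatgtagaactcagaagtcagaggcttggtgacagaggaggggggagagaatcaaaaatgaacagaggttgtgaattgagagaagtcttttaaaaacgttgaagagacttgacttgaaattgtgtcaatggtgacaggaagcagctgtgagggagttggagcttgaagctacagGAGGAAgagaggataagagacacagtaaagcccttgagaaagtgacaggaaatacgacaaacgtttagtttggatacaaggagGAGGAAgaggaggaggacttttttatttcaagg
Retnla, chr16:48842359-48842658, plus strand: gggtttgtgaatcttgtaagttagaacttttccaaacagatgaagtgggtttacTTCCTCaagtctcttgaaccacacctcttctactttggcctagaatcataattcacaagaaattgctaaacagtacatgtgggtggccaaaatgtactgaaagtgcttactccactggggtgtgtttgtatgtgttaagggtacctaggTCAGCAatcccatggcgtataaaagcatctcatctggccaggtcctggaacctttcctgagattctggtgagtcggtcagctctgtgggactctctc
Mrc1 has 3 GAGGAA matches, F13a1 has 2, and Cbr2 and Retnla have 1 each, while TGCTGA occurs once in Cbr2 and once in Retnla. No match of one overlaps a match of the other in these windows. The table of promoters held 12 windows for 9 of the 10 genes, and Lyve1 was not matched. GAGGAA was in 8 of the 12 windows, where 28.28% of all 32851 promoters hold it, and TGCTGA was in 5 of the 12, against 19.48% of all promoters. A match describes the letters and not a bound site.

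Stab1 encodes stabilin-1, a scavenger receptor that clears modified lipoproteins. Its level was 619 CPM in border macrophage-like cells of C-ON and 513 in FMC_new, and 137 and 100.2 in MHC class II C1q macrophage-like cells. Microglia-like cells were the next class in both libraries, with 36.0 CPM (95% interval 25.3 to 49.6) and 22.7 CPM (19.3 to 26.5), above the T cell-like levels of 1.65 and 1.96 CPM. In microglia-like cells Stab1 was spread thinly over many cells, with 164 of 1516 cells holding 198 UMIs and no cell more than 7. Of all Stab1 UMIs, 12.4% lay in microglia-like cells, the largest such share among the 10 genes. Macrophage-like cells held 6.95 and 7.18 times the microglia-like level.

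Cd163 encodes the receptor for haemoglobin bound to haptoglobin. It reached 704 and 540 CPM in border macrophage-like cells of C-ON and FMC_new, and 93.6 and 66.2 in MHC class II C1q macrophage-like cells. No monocyte-like cell had a Cd163 UMI, and microglia-like cells held 4.87 and 1.13 CPM. Dendritic cell-like cells held 16.4 and 7.99 CPM, and their intervals (11.5 to 22.7 and 6.27 to 10.1) lie above the T cell-like levels of 1.18 and 1.75 CPM. Of these UMIs, 30 of 36 and 69 of 73 lay in cluster 4 of the myeloid cells, led by Cd209a, where Cd163 stood at 43.9 and 30.5 CPM.

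Lyve1 encodes a hyaluronan receptor known from lymphatic endothelium and from perivascular macrophages. It had the steepest change between the macrophage-like classes, from 1796 and 1511 CPM in border macrophage-like cells to 87.0 and 27.0 in MHC class II C1q macrophage-like cells, ratios of 20.6 (95% interval 16.6 to 26.0) and 55.9 (44.9 to 70.4). Neither library had a Lyve1 UMI in a monocyte-like cell. Against 3 counts entered there, macrophage-like cells were 8.97-fold and 27.4-fold higher, with 95% intervals from 7.27 and 22.3. In microglia-like cells of C-ON, 17 of 20 Lyve1 UMIs lay in a single cell, and those of FMC_new held 3 UMIs in 1347 cells. Lyve1 was found in 82.8% and 75.0% of border macrophage-like cells (65.6% and 53.1% thinned), and in 0 and 5 T cell-like cells. Of all Lyve1 UMIs, 81.9% lay in macrophage-like cells, the largest share of the 10 genes.

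Folr2 encodes folate receptor beta. Border macrophage-like cells held 531 and 478 CPM, and MHC class II C1q macrophage-like cells 43.0 and 22.5, ratios of 12.3 and 21.3. Microglia-like cells held 19.5 CPM in C-ON (11.9 to 30.1) and 6.63 in FMC_new (4.87 to 8.81), and no monocyte-like cell had a UMI. In C-ON the interval of the MHC class II C1q macrophage-like level starts at 31.5 CPM, above the upper end for microglia-like cells. In FMC_new macrophage-like cells stood at least 9.95-fold above the monocyte-like limit, and in C-ON at least 2.89-fold, which is why Folr2 missed the 4-fold rule. Folr2 shares 975 exonic bases with Gm10602 on the opposite strand, so its reads are separable only if the counting used strand.

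Cbr2, Pf4 and F13a1 are not receptors. Cbr2 encodes a carbonyl reductase. It stood at 1074 and 954 CPM in border macrophage-like cells, 132 and 53.4 in MHC class II C1q macrophage-like cells, 5.84 and 2.68 in microglia-like cells and 0.455 and 1.10 in dendritic cell-like cells, with no UMI in monocyte-like cells. Cbr2 was also found outside the myeloid cells. Cluster 25 of all cells, an unnamed cluster of 296 cells led by Mia, Cyp2f2, Folr1, Aldh1a2 and Krt18, held 16.9% of all Cbr2 UMIs, at 908 CPM in C-ON (38 UMIs in 3 of its 10 cells) and 192 CPM (171 to 215) in its 286 cells of FMC_new. In that cluster Cbr2 was found in 122 cells (41.2%), whereas Lyve1 had no UMI and Mrc1 and Cd163 stood at 2.45 CPM each and Folr2 at 9.20 CPM, in 15 of the 296 cells. The cluster was singled out after its Cbr2 level was seen, and Folr1 is a receptor gene other than Folr2.

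Pf4 encodes the chemokine platelet factor 4, best known from platelets and megakaryocytes. Border macrophage-like cells held 1229 and 974 CPM of it and MHC class II C1q macrophage-like cells 295 and 176. Microglia-like cells held 15.6 and 6.20 CPM, dendritic cell-like cells 1.37 and 1.97, and monocyte-like cells 2 UMIs in all 76 cells. The T cell-like level of Pf4 was 0.472 CPM in C-ON and 5.53 in FMC_new, so the microglia-like value of FMC_new lies near that reference. In microglia-like cells of C-ON, 14 of the 16 Pf4 UMIs lay in a single cell. Pf4 was also the leading gene of myeloid cluster 10, which was left unnamed (median 1399.5 UMIs per cell) and held 1478 CPM in its 24 cells of C-ON and 430 in its 186 cells of FMC_new. Prl and immunoglobulin genes were among the leading genes of that cluster as well.

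F13a1 encodes the A subunit of coagulation factor XIII, which cross-links fibrin. It was the gene of the set that monocyte-like cells shared. Border macrophage-like cells held 2833 and 2432 CPM and MHC class II C1q macrophage-like cells 509 and 232. Monocyte-like cells held 218 CPM in C-ON (113 to 382, from 12 UMIs) and 844 in FMC_new (747 to 950, from 275 UMIs). In FMC_new the monocyte-like level was thus above that of the MHC class II C1q macrophage-like cells, with intervals that do not meet, and in C-ON it was below. F13a1 was found in 5 of 11 and 33 of 65 monocyte-like cells, which is 18.2% and 28.6% after thinning each cell to 1000 UMIs. Microglia-like cells held 32.1 CPM in C-ON (22.1 to 45.1), against a T cell-like level of 12.5 (9.37 to 16.4), but these 33 UMIs lay in 7 cells and 15 of them in 1 cell. They held 5.78 in FMC_new, below the T cell-like level of 11.5. Dendritic cell-like cells held 19.1 and 5.37 CPM. With both libraries summed, macrophage-like cells held 0.924 times the monocyte-like level (95% interval 0.819 to 1.05).

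Ms4a7 encodes a membrane protein of the MS4A family found on macrophages. Unlike the genes above it was no higher in the border class, with 191 CPM in C-ON and 152 in FMC_new against 210 and 301 in MHC class II C1q macrophage-like cells. The ratio was 0.912 (0.678 to 1.21) in C-ON and 0.506 (0.403 to 0.629) in FMC_new, so only FMC_new has an interval below 1. Within the MHC class II C1q macrophage-like class, cluster 9 stood apart. Its 208 cells of FMC_new held 763 CPM of Ms4a7, while the 530 cells of cluster 0 of the same library held 151. The 27 cells of C-ON in cluster 9 held 134 CPM of Ms4a7 (73.3 to 225) and, against 29.8 CPM in FMC_new, 1044 CPM of F13a1, so the cells of the 2 libraries in this cluster differed. Lyve1, Folr2, Cbr2 and Retnla had no UMI in the FMC_new cells of cluster 9, in which Mrc1 stood at 311 CPM and Pf4 at 156. Outside the macrophage-like classes, monocyte-like cells held 36.4 CPM (2 UMIs) and 21.5 CPM of Ms4a7, and microglia-like cells 4.87 and 11.4. Ms4a7 was the leading gene of cluster 9, followed by Lilra5, Col14a1 and Frmpd4.

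Retnla encodes the secreted protein RELM-alpha, a gene of alternatively activated macrophages. It stood at 176 and 346 CPM in border macrophage-like cells and 166 and 391 in MHC class II C1q macrophage-like cells, a ratio of 1.06 in C-ON (0.776 to 1.44) and 0.884 in FMC_new (0.759 to 1.03). Dendritic cell-like cells held 66.9 and 59.6 CPM, microglia-like cells of FMC_new 3.10 and those of C-ON no UMI. These sums came from very few cells. A Retnla UMI was found in 41 of 1137 macrophage-like cells, the 10 highest cells held 82.8% of the 1727 UMIs, and the highest cell 228 UMIs. In C-ON, 1 of the 8 cells with a UMI held 123 of the 235 UMIs, and in dendritic cell-like cells a single cell held 366 of 691. For comparison, the 10 highest cells held 11.8% of the Mrc1 UMIs and 24.2% of the Lyve1 UMIs. The same held outside the myeloid cells, where 1 of 407 NK cell-like cells carried all 121 Retnla UMIs of that class. The Poisson intervals of Retnla count UMIs and not cells, and so understate its error.

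**Figure D2:**
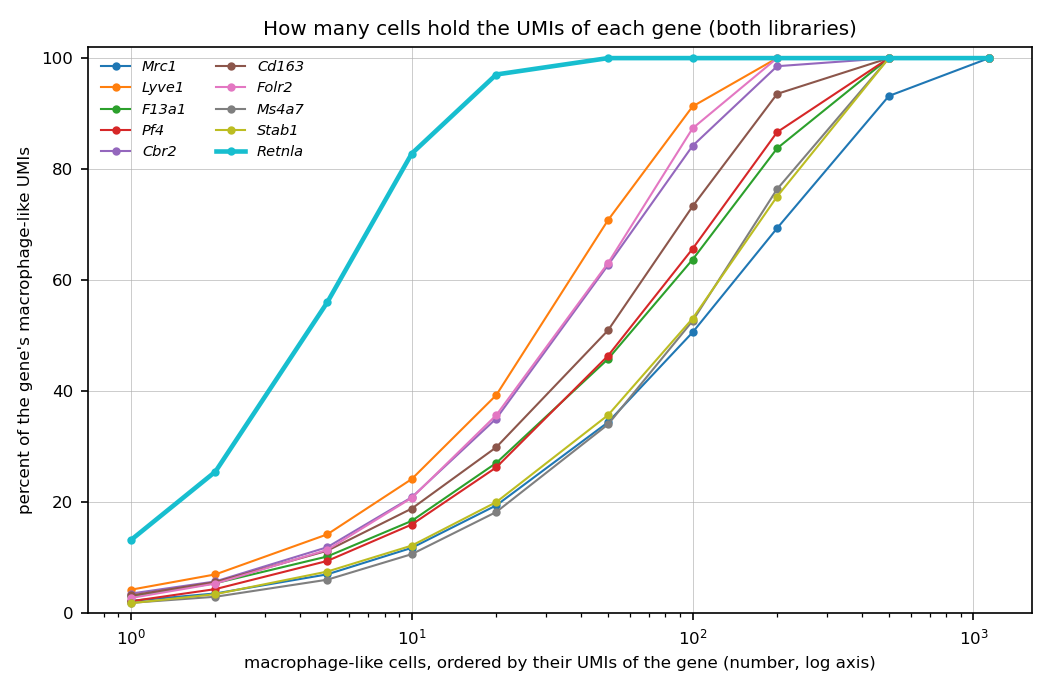
Cumulative percent of a gene's UMIs in macrophage-like cells of both libraries against the number of cells, ordered by their UMIs of that gene (log axis), with points at 1, 2, 5, 10, 20, 50, 100, 200, 500 and 1137 cells. Retnla (thick line) reaches 82.8% with 10 cells, where Lyve1 reaches 24.2% and Mrc1 11.8%.

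Between the macrophage-like classes, 8 of the 10 genes were at least 2 times higher in border macrophage-like cells in both libraries, and 0 were at 0.5 times or lower in both. Of 8069 genes with at least 10 CPM in either class, 318 (3.94%) met the first limit and 236 (2.92%) the second. The ratios in C-ON and FMC_new were 12.3 and 21.3 for Folr2, 8.14 and 17.9 for Cbr2, 5.57 and 10.5 for F13a1 and 7.52 and 8.17 for Cd163. They were 4.17 and 5.53 for Pf4, 4.53 and 5.12 for Stab1 and 3.61 and 4.46 for Mrc1. For Lyve1, Cbr2, F13a1 and Mrc1 the intervals of the libraries do not meet, and the FMC_new ratio is the larger in all 8 genes. These intervals count UMIs and not cells, and so understate the error. In the MHC class II C1q class, 10 cells held 77.4% of the 93 Lyve1 UMIs of C-ON and 74.2% of the 89 of FMC_new. At the 4-fold limit against the other myeloid classes, the border class alone had 8 of the 10 genes (all but F13a1 and Retnla), among 29 genes of the whole table, and the MHC class II C1q class alone had 3 (Mrc1, Pf4 and Ms4a7), among 6.

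**Figure D3:**
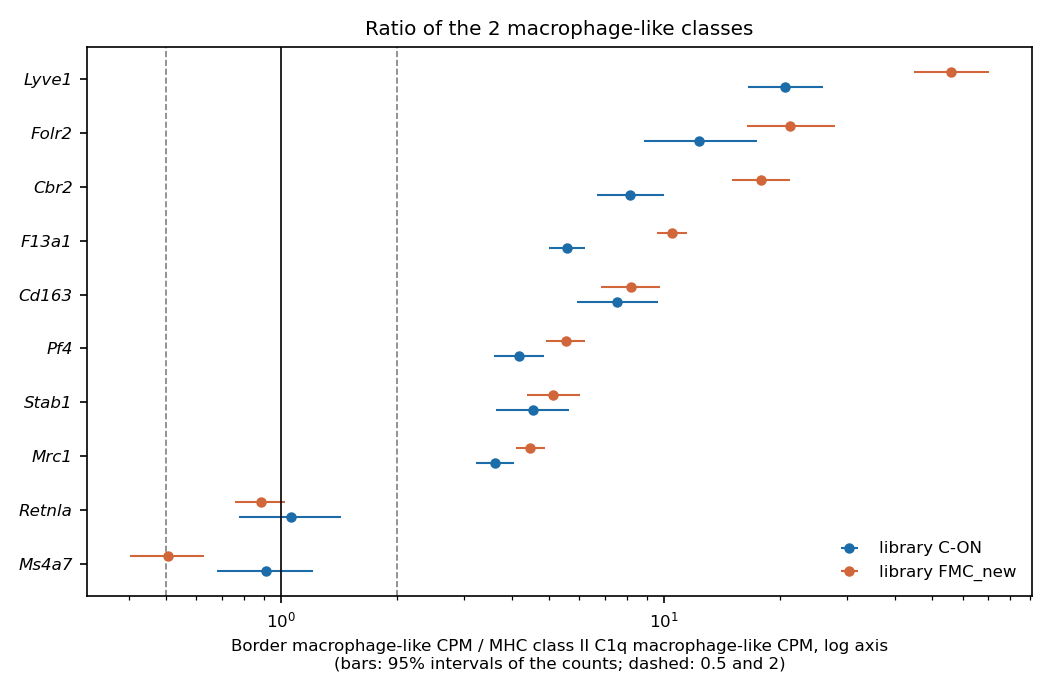
Ratio of the border macrophage-like level to the MHC class II C1q macrophage-like level of each gene (log axis), C-ON in blue and FMC_new in orange, with 95% intervals of the counts and dashed lines at 0.5 and 2. Lyve1 lies farthest to the right (20.6 and 55.9), and Ms4a7 (0.912 and 0.506) and Retnla (1.06 and 0.884) lie about or below 1.

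Most of the 10 genes stood higher in C-ON within each macrophage-like class. In border macrophage-like cells, 9 of the 10 genes were higher in C-ON, by a median ratio of 1.20 over the 10 genes, where the median over 7109 genes was 1.01 and 50.9% of them were higher in C-ON. The interval lay above 1 for 6 genes and included 1 for Cbr2 (0.983 to 1.29), Folr2 (0.915 to 1.35) and Ms4a7 (0.894 to 1.75), and the exception was Retnla at 0.509. In MHC class II C1q macrophage-like cells, 8 of the 10 were higher in C-ON, all with intervals above 1 (median 1.61, over 7330 genes 1.05, of which 59.4% were higher), with Lyve1 at 3.22, Cbr2 at 2.47 and F13a1 at 2.19. Ms4a7 (0.696) and Retnla (0.424) were lower in C-ON there. The intervals of these ratios also count UMIs and not cells. The labels do not tell the libraries apart beyond their titles. Gh, given above, ran the other way, and the part of free RNA in these ratios was not tested.

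Most border macrophage-like cells held several of the 10 genes. A mean number sums the shares of single genes, and whether the genes occurred together beyond those shares was not tested. After thinning each cell to 1000 UMIs, border macrophage-like cells held a UMI of 4.83 of the 10 genes on average in C-ON and 4.16 in FMC_new (mean of the libraries 4.49 ± 0.475, SD, n = 2). MHC class II C1q macrophage-like cells held 1.37 and 0.951 (1.16 ± 0.296, SD, n = 2), monocyte-like cells 0.273 and 0.333, dendritic cell-like cells 0.153 and 0.0779, microglia-like cells 0.141 and 0.0589, and T cell-like cells 0.00607 and 0.0155. At least 5 of the 10 genes were found in 59.4% of the border macrophage-like cells of C-ON and 45.8% of those of FMC_new, against 5.04% and 1.37% of the MHC class II C1q macrophage-like cells. No dendritic cell-like or monocyte-like cell had 5, and 1 microglia-like cell of C-ON had 7. Without thinning, the mean over both macrophage-like classes was 3.07 in place of 1.71.

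**Figure D4:**
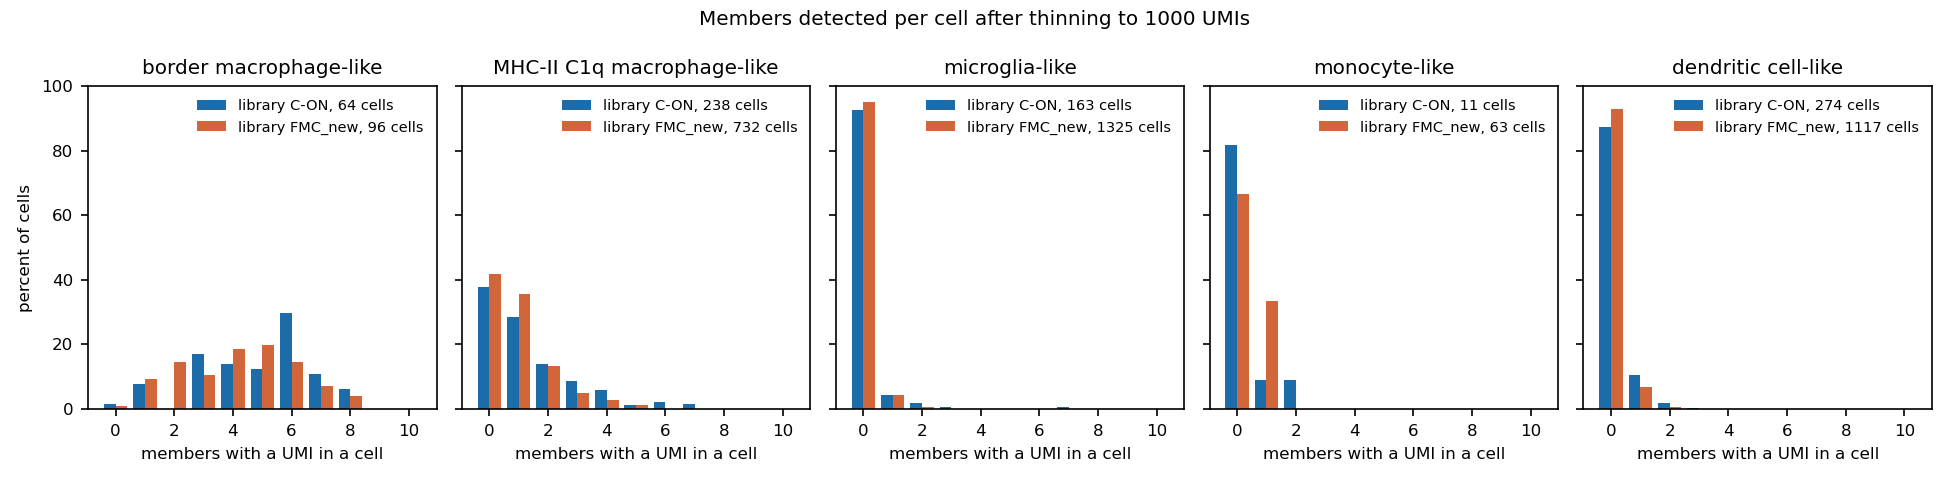
Percent of cells (bars, from 0) by the number of the 10 genes with a UMI after thinning to 1000 UMIs, in 5 classes, with C-ON in blue and FMC_new in orange. Border macrophage-like cells spread from 0 to 8 genes, with 1.56% and 1.04% of cells at 0, while 92.6% and 94.9% of microglia-like cells were at 0.

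With both macrophage-like classes pooled, the presence of Lyve1 in a cell went with some of the other genes more than with others. Among thinned macrophage-like cells, 56 of C-ON and 64 of FMC_new had a Lyve1 UMI. Folr2 was found in 48.2% and 48.4% of these cells, and in 2.85% and 2.49% of the cells without a Lyve1 UMI. For Cbr2 the shares were 57.1% and 51.6% with Lyve1, and 8.13% and 5.50% without. Mrc1 was found in 80.4% and 57.8% of the cells with Lyve1, and still in 36.2% and 26.8% of those without. Ms4a7 went the other way in FMC_new, with 15.6% in cells with Lyve1 (7.76 to 26.9) and 21.9% without (19.0 to 25.0), and stood at 17.9% and 12.6% in C-ON. The intervals with and without Lyve1 overlap in both libraries. Retnla was at 3.57% and 1.56% with Lyve1 and at 2.03% and 2.62% without. Lyve1, Folr2 and Cbr2 all stood higher in the border class. The shares were not read within each class, so they cannot be told apart from the difference between the classes.

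Where the transcripts lay is a different measure, as a small class with a high level can hold few of them. Macrophage-like cells, which were 3.43% (C-ON) and 4.96% (FMC_new) of all cells, held a median of 73.6% and 64.0% of the UMIs of a gene. Over both libraries the share went from 50.8% for Retnla to 81.9% for Lyve1. The border class alone, 160 cells, held 72.9% of the Lyve1 UMIs, 54.3% of Folr2, 45.2% of Cbr2, 44.1% of F13a1 and 41.7% of Cd163. It held 7.81% of the Ms4a7 UMIs, of which the MHC class II C1q class held 62.0%. Conventional dendritic cell-like cells held 11.4% of Mrc1, 8.18% of Cd163 and 20.3% of Retnla. Clusters of the myeloid cells led by markers of T cells, oligodendrocytes and other non-myeloid cells (715 mixed cells) held between 7.00% of Cbr2 and 20.5% of Retnla. The 341 cells of unnamed myeloid clusters held from 0.0294% of Retnla to 6.79% of Pf4.

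Dendritic cell-like cells were not alike. Cluster 4 of the myeloid cells counted 3 of 18 dendritic markers and also 3 of 14 border macrophage markers, a larger part of the border list. Its dendritic name rests on the marker Cd209a being among its leading genes. The cluster held 146 of the 184 and 351 of the 433 Mrc1 UMIs of the dendritic cell-like cells. Myeloid cluster 4 (101 and 333 cells), led by Cd209a, held 214 and 155 CPM of Mrc1, while cluster 7 (74 and 223 cells), which counted Xcr1 and Clec9a, held 16.5 and 0.827. Cluster 4 also held 215 and 177 CPM of Retnla, a level that rests on few cells. All Retnla UMIs of conventional dendritic cell-like cells lay in 5 cells of C-ON and 11 of FMC_new. In FMC_new 1 cell held 366 of the 544. Lyve1 was at 1.46 CPM in C-ON in cluster 4 and had no UMI in FMC_new, so the Mrc1 of this cluster came without Lyve1.

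Across 31 pairs of library and cluster of the reclustered cells, each with at least 30 cells, the levels of the 10 genes varied together to differing degrees. Not all pairs are myeloid. They include clusters named T cell, oligodendrocyte and glioma or oligodendrocyte precursor, and unnamed clusters. Pearson's r of log2(CPM + 10) had a median of 0.797 over the 45 pairs of the 10 genes, and went from 0.330 (Ms4a7 with Retnla) to 0.963 (Lyve1 with Cbr2). These points share libraries, depth and the border class, so r is a description. The part of the non-myeloid clusters in r was not tested. Of 13084 genes, the 3 most like Lyve1 were Cbr2 (0.963), Fcna (0.923) and Folr2 (0.919), and those most like Folr2 were Cbr2 (0.948), Lyve1 (0.919) and Fcna (0.908). All 3 genes most like Cbr2 (Lyve1, Folr2 and, at 0.931, Cd163) and all 3 most like Cd163 (Cbr2, Lyve1 and Mrc1) were of the set. Mrc1 was most like Dab2 (0.891), Cd163 (0.890) and Mill2 (0.869), Pf4 most like Mill2 (0.914), Cbr2 (0.905) and Pla2g2d (0.874), and Stab1 most like Cp (0.912), Maf (0.897) and Stard8 (0.866). F13a1 was most like Ms4a4a (0.948), Cd93 (0.916) and Gm49144 (0.907), which lies on the opposite strand of F13a1. Ms4a7 was most like Col14a1 (0.883), Lilra5 (0.870) and Cd300ld3 (0.851), and Retnla, with the lowest values, most like Map3k6 (0.815), Dok2 (0.744) and Emp1 (0.705).

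**Figure D5:**
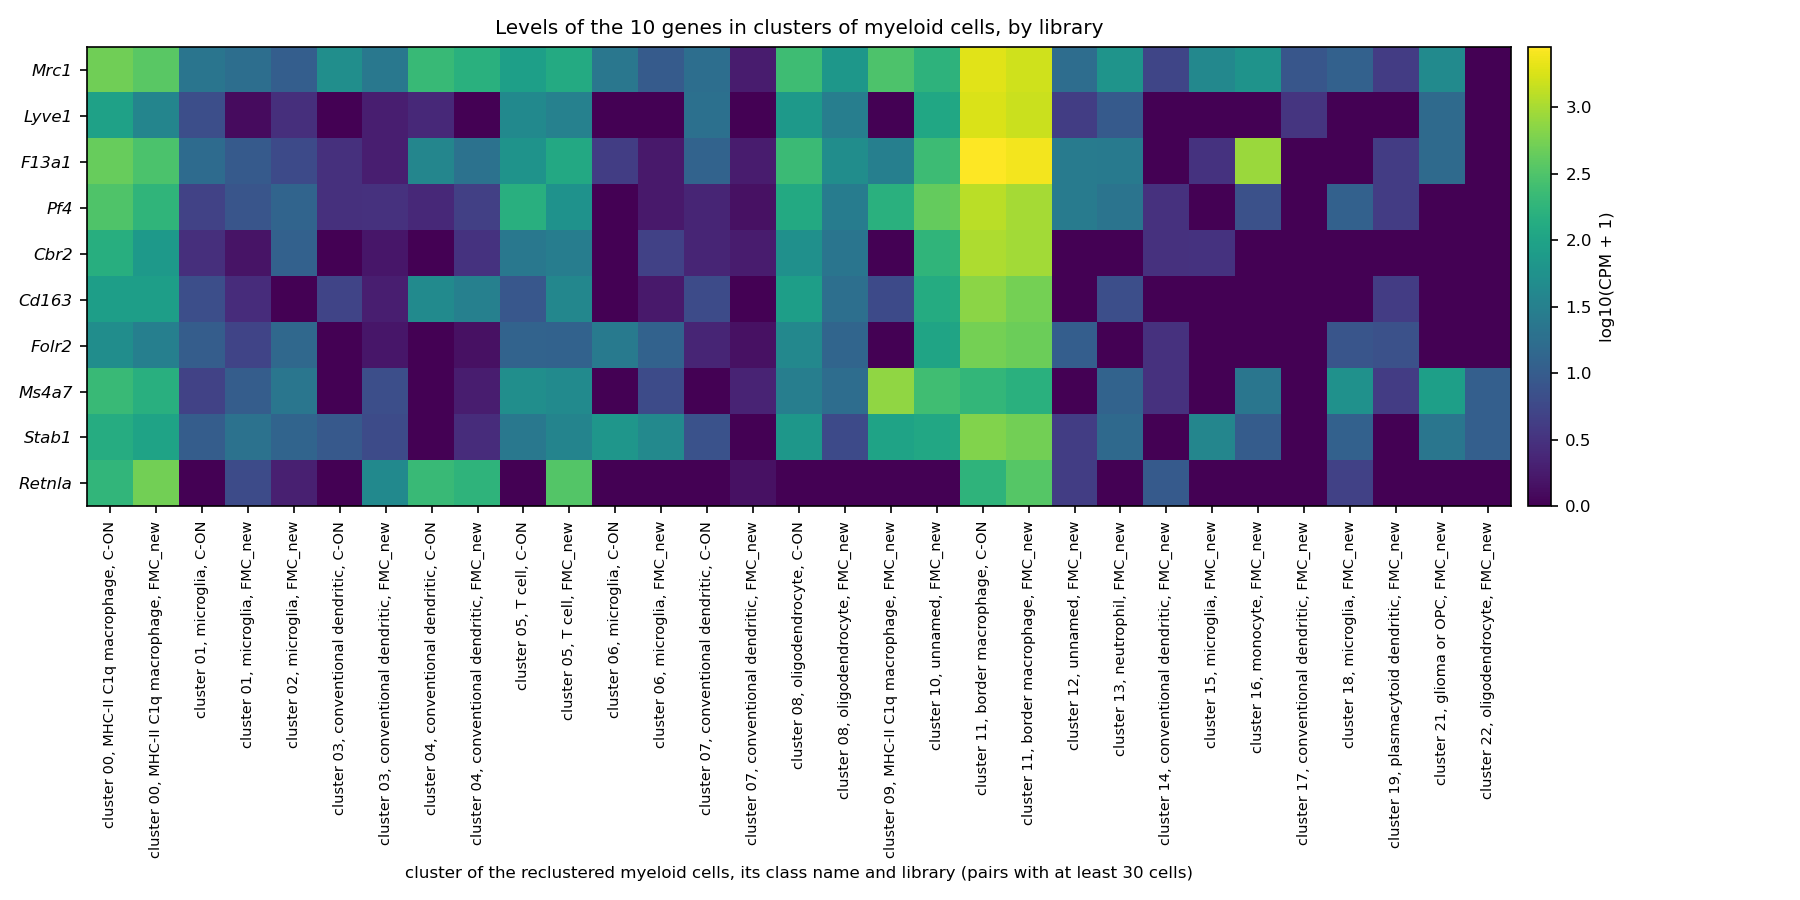
Level of each gene, as log10(CPM + 1) by colour, in 31 pairs of library and cluster of the reclustered cells with at least 30 cells, non-myeloid and unnamed clusters included. Both columns of the border macrophage-like cluster 11 are bright for 8 genes, Ms4a7 is brightest in cluster 9 of FMC_new (763 CPM), and F13a1 is the highest of the 10 in the monocyte-like cluster 16 of FMC_new (844 CPM).

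Further macrophage genes were read from 4 lists, none of which contains a gene of the set, by the ratio of border to MHC class II C1q macrophage-like cells with the libraries summed. The median of this ratio over all 8069 genes was 1.12. Of 22 scavenger and endocytic receptor genes, 15 had at least 10 CPM, 4 were at least 2 times higher in the border class in both libraries and 0 lower, with a median ratio of 1.74. Timd4, a receptor for phosphatidylserine, stood at 312 and 266 CPM against 27.1 and 21.5, and Scarf1 at 15.2 and 11.9 against 0.936 and 1.52, while Mgl2 (ratio 0.575) and Cd36 (0.467), a receptor for fatty acids, had the lowest ratios. All 10 class II antigen presentation genes were measured, of which 0 were higher and 7 at 0.5 times or lower (median 0.428). Their named ratios went from 0.582 (Ciita, the class II transactivator) and 0.567 (H2-DMa) down to 0.303 (H2-Ob) and 0.0739 (H2-Oa). Since 4 class II genes (H2-Aa, H2-Ab1, H2-Eb1 and Cd74) helped to name the classes, these ratios follow in part from the naming.

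Of 18 alternative activation genes, 11 had at least 10 CPM, 3 were higher and 1 was lower, with a median of 1.20. Alox15, a lipoxygenase gene, stood at 97.1 and 39.0 CPM in border macrophage-like cells, with no UMI in the other class in C-ON and 2.43 CPM in FMC_new. Fn1 (fibronectin) stood at 39.4 and 152 against 7.48 and 27.6. Ear2 had no UMI in the border class, and Mmp12, a metalloprotease gene, stood at 0 and 15.2 against 22.5 and 69.8. Of 14 growth factor receptor and transcription factor genes, 13 had at least 10 CPM, 0 were higher and 3 lower (median 0.874). Csf1r, the receptor that macrophages need to survive, had a ratio of 1.80 and Cebpb 1.44, and Runx3 (0.255) and Id2 (0.161) had the lowest. None of the genes of the 4 lists met the 4-fold rule over microglia-like, monocyte-like and dendritic cell-like cells. Only 0.134% of all genes with at least 10 CPM in macrophage-like cells met it, so few would in any list of this size.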

How the data were processed

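The 2 libraries were made with the 10x Genomics 5′ kit, and the authors deposited raw UMI counts per gene and cell barcode. The file headers and the submitters' processing notes name Cell Ranger 7.2.0, where the study's methods name an earlier version, and the notes also name Seurat 5.2.1 and the mm10 build. Whether intronic reads were counted, which bears on UMI levels, is not given in the sources used here. Totals were 85101211 and 129113325 UMIs in 10845 and 21341 barcodes. Cells with 500 to 5000 genes, 500 to 20000 UMIs and at most 5% mitochondrial UMIs were kept. Seurat 5.3.0 in R 4.3.3 log-normalised the counts, integrated the libraries by canonical correlation from 2000 variable genes without the 10 genes, and clustered with 30 components at resolution 0.8. The 5291 myeloid cells were reclustered into 24 clusters. A cluster was named from its markers, with at least 3 counted, by limits settled after its leading genes were seen. The genes and lists were chosen with earlier results of these data known. All 10 genes were named, with the 3 most like each and up to 4 of each list by ratio.

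UMIs were summed per class and library (Python 3.11.15, scipy 1.17.1). Both libraries carry 1 condition, so no test was made. Intervals are 95% exact Poisson or Clopper-Pearson and cover counting error only. Those of levels and ratios treat UMIs as independent, although many can lie in few cells, and so understate the error. Nothing says how the pools were split, so the spread between libraries may be technical. A class without a UMI was given 3 counts per library, or over both libraries where these were summed. Shares of cells were also read after thinning to 1000 UMIs, which left out 612 shallower cells. Scrublet called 1 and 0 doublets and so did not work, and no doublet was removed.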

Additional observations from a re-analysis of the deposited data

How the results depend on the processing

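No paired analysis was possible because the results come from no test and both libraries belong to 1 group. Of 7 genes at 4 or more times every other myeloid class, 4 (Lyve1, Cbr2, Cd163 and Ms4a7) met the limit when cells were classed by a gate on single cells, and 0 met a limit of 10-fold. The count was 6 with SCTransform, without upper limits, and with the T cell-like level subtracted, and Cd163 was the gene lost under the first pair. With 1 library left out the count was 8 to 9. The median ratio of 12.4 was 6.12 with the gate and 6.06 to 11.5 with 1 library left out. The mean of 1.71 genes per macrophage-like cell was 1.15 with the gate, 1.10 thinned to 500 UMIs, 2.36 thinned to 2000 and 3.07 without thinning, and 1.32 to 2.10 with 1 library left out. The median share of UMIs in macrophage-like cells, 67.0%, was 81.8% with the gate and 64.0% to 73.6% with 1 library left out. The cause was not tested. Of 120 single-gene ratios under alternatives, 37 moved and 11 were below 1. Retnla, at 5.36, was 0.510 with the gate and 17.0 without upper limits on genes and UMIs. F13a1, at 0.924, was 1.17 at resolution 1.6 and 4.84 without FMC_new, so the direction of these genes against the next class depends on the setting.

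SCTransform and resolution 0.4 gave no border macrophage-like class, and resolution 1.6 gave one of 119 and 240 cells, so the ratios between the macrophage-like classes rest on the resolution used. Leaving out the 10% of cells with the highest Scrublet scores and counting unnamed clusters as macrophage-like were added after seeing the data, the former because Scrublet's calls could not be used. Ratios against monocytes rest on 11 cells in C-ON and 65 in FMC_new.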
